A study of Mus musculus with 9 samples.

Results

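The net change between the first and the last sampled day of mouse retinal organoid culture was measured on 3 arrays of differentiation day 23 (DD23) and 3 arrays of day 10 (DD10), that is 6 of the 9 arrays of the series. The samples were chosen by their titles. Each day held 1 sample of each of 3 lines: a wild type line (WT), a line without Bhlhb4 (B4KO; current symbol Bhlhe23) and a line without Islet1 (Isl1KO), the deletions being meant to reduce bipolar cell numbers. Each sample pooled 5 organoids grown from mouse embryonic stem or induced pluripotent stem cells by serum-free floating culture with quick reaggregation. The labels do not say which line came from which kind of stem cell, nor whether a knockout line was 1 clone. Values of DD23 and DD10 were paired by line, and the 3 samples of day 16 (DD16) served only to show when a net change took place. With 1 sample per line and day, the 3 lines are the replicates, so p-values measure the spread between these 3 lines, 2 of which carry a knockout.

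The retina forms from a sheet of dividing progenitor cells that give rise to its neurons in overlapping waves, ganglion cells, horizontal cells, cones and amacrine cells first, and rods, bipolar cells and Müller glia last. A newborn photoreceptor turns on the transcription factors Otx2 and Crx. Nrl and its target Nr2e3 then set the rod fate, and the proteins of phototransduction, the outer segment and the ribbon synapse follow. In pooled organoids a change in the level of a transcript per array cannot separate more or fewer cells of a type from more or less RNA per cell.

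A level is given here as the log2 of the processed intensity of a gene's probe over the 75th percentile of its array, and a net change is the level at DD23 minus that at DD10, as the mean of the 3 lines with its standard error (SE). The 75th percentile of intensity was 1079 to 1138 on the DD10 arrays and 912 to 940 on the DD23 arrays, and 57.3% to 67.8% of gene spots were well above background over the 9 arrays. Of 23063 genes tested, 12859 (55.8%) passed an adjusted p of 0.05, 6622 (28.7%) upward and 6237 (27%) downward. The counts of list members below stand beside these 28.7% and 27%. Each of the 12859 moved the same way in all 3 lines, which a pass in this paired test required. It is therefore no separate sign of agreement between lines. The values of the days did not overlap in 12695 genes (55%). A net change of at least 2-fold was reached by 2997 rising genes (13%) and 2179 falling genes (9.45%). Changes of at least 8-fold were more often rises, 497 against 185, as were those of at least 32-fold, 115 against 23. The median net change over all genes was 0.0443, and 5% to 95% of the genes lay between -1.5 and 1.99. Without the Isl1KO line 7518 genes passed, 4006 upward and 3512 downward. A fit that leaves out a line has fewer residual degrees of freedom, so a call lost in it need not depend on that line. The balance of rises and falls depended on the scale: 8 spike-in RNAs, meant to be added in equal amounts and well above background on all 6 arrays, read 0.31 to 0.54 log2 units (median 0.42) higher at DD23 than at DD10 on the scale used here. With the arrays scaled to these spike-ins, a choice made after seeing the data, the median net change was -0.382, and 3470 genes rose against 11452 that fell.

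**Figure D1:**
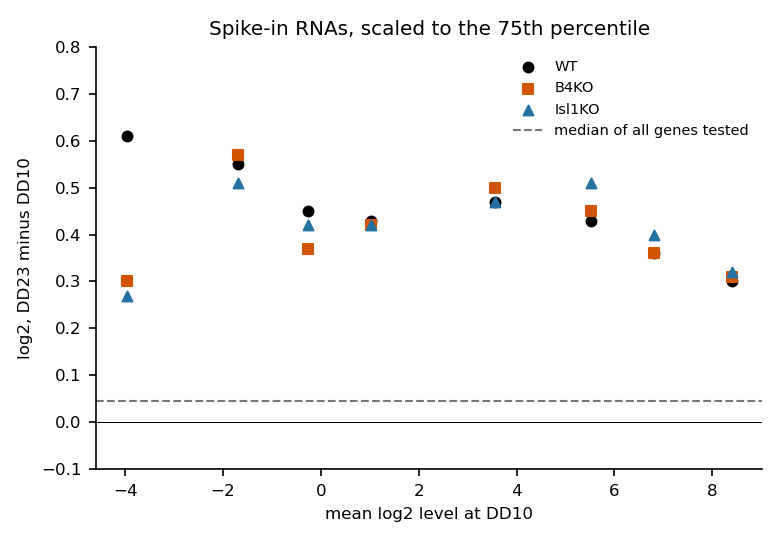
Difference between DD23 and DD10 in the level of 8 spike-in RNAs (vertical axis, log2 units) against their level at DD10 (horizontal axis, log2 relative to the 75th percentile), with 1 point per spike-in and line. All 8 were higher at DD23 in every line, by a median of 0.42.

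Most of the 12 largest rises were of genes on the photoreceptor or ribbon synapse lists, with Crym, Tmem92 and Pdc as exceptions. Nrl, the rod-determining transcription factor, had levels of -6.71, -6.44 and -7.19 at DD10 and of 5.61, 5.49 and 5.87 at DD23 in WT, B4KO and Isl1KO. Its probe (mm9, chr14:56138365-56138424) was not well above background on any DD10 array and was on all DD23 arrays, so the rise was at least 1472-fold (net change 12.44 ± 0.24, SE, n = 3 lines, adjusted p = 0.000853). Nr2e3, a nuclear receptor that represses cone genes in rods, went from -6.81, -7.12 and -7.53 to 3.71, 3.31 and 3.91, a rise of at least 365-fold (10.79 ± 0.24, adjusted p = 0.000853). The values of the 2 days were far apart in every line for both genes. Crym, a thyroid hormone-binding protein on the list of Müller glia genes, rose by at least 663-fold. The other genes among the 12 largest rises were Gngt1 and Gngt2, the transducin gamma subunits of rods and cones, Prph2, Rp1 and Rp1l1 of the outer segment, Pde6h, the inhibitory subunit of the cone phosphodiesterase, Pdc (phosducin), Lrit1 and Tmem92. Gngt1 rose by at least 416-fold, Tmem92 by at least 212-fold, Lrit1 by at least 172-fold, Pde6h by at least 163-fold, Rp1 by at least 157-fold and Rp1l1 by at least 148-fold. Prph2 (net change 10.53), Gngt2 (10.45) and Pdc (9.38) were well above background on 1, 2 and 2 of the DD10 arrays.

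Otx2 and Crx, which act earlier, were well above background on all DD10 arrays. Otx2 rose from 5.4, 5.29 and 4.99 to 6.52, 6.85 and 6.68 (1.46 ± 0.15, adjusted p = 0.00338). Crx rose from 0.42, 1.43 and 0.85 to 6.33, 6.62 and 6.70 (5.65 ± 0.18, adjusted p = 0.000906). The lines did not overlap between days for either gene, as was so in 55% of all genes. Of the 19 photoreceptor factors tested, 15 rose and none fell, with a median net change of 2.36, against 28.7% of all genes rising. Among the 16 of them that were well above background on all 6 arrays, 12 rose and the median was 1.75. Of all genes so detected, 5181 of 19348 rose, with a median of -0.0096. A gene dim on either day drops out of such a subset, so the subset is itself a selection by level. Samd7, a repressor protein of rods, rose by at least 111-fold. Rax, an early eye-field factor that stays on in photoreceptors, rose by 1.03 ± 0.22 (adjusted p = 0.0202), a call lost without Isl1KO (1.14, adjusted p = 0.0737). Sall3 (-0.37, adjusted p = 0.28), Esrrb (-0.24, adjusted p = 0.22) and Onecut1 (0.39, adjusted p = 0.25) did not pass.

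Of the 20 listed rod genes 18 could be tested, and 13 rose and none fell (median net change 5.48). Of the 13, 8 were not well above background on any DD10 array, so they could enter the test only through their DD23 values. Among the 9 rod genes well above background on all 6 arrays, 4 rose, with a median of 0.459. The brightest probe stood for each gene, and for the rod channel gene Cnga1 it moved by 0.25 while another probe moved by 5.57. Rcvrn, the calcium sensor recoverin, went from -6.54, -6.91 and -7.30 to 1.03, 0.76 and 1.98, a rise of at least 69.7-fold. Pde6b, the catalytic beta subunit of the rod phosphodiesterase, was at -6.74, -1.89 and -7.49 at DD10 and 2.64, 2.19 and 3.05 at DD23 (8 ± 1.39, adjusted p = 0.0124), with an adjusted p of 0.0632 without Isl1KO and of 0.0532 without WT. It was well above background on 1 DD10 array, and its net change was 4.08 in B4KO, against 9.39 in WT and 10.5 in Isl1KO. Gnb1, a G protein subunit of rods that many other cells also make, moved by 0.13 (adjusted p = 0.27).

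Of 14 cone genes tested, 12 rose and none fell (median net change 5.81), and among the 10 that were well above background on all 6 arrays 8 rose (median 4.53). Opn1sw, the short-wavelength cone pigment, went from -4.16, -3.40 and -4.60 to 4.44, 3.69 and 4.84 (8.38 ± 0.49, adjusted p = 0.00156), and it was well above background on every array of both days. Arr3, cone arrestin, went from -4.30, -5.73 and -4.47 to 1.79, 1.76 and 2.11 (6.72 ± 0.30, adjusted p = 0.00121). Rcvrn, Pde6b, Opn1sw and Arr3 had every DD23 value above every DD10 value. The days did not overlap in 55% of all genes, and Rcvrn entered the test only through its DD23 values. Kcnv2, a potassium channel subunit of photoreceptors, moved by 0.23 (adjusted p = 0.18).

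Genes of the outer segment and connecting cilium held both very large and small changes. Of 27 tested, 22 rose and none fell (median 1.53), with a median of 0.811 for the 20 that were well above background on all 6 arrays. Prph2, which shapes the rims of outer segment discs, went from -5.31, -6.71 and -5.01 to 4.73, 4.63 and 5.19 (10.53 ± 0.30, adjusted p = 0.000863). Rpgr (0.04, adjusted p = 0.69), Ift140 (-0.30, adjusted p = 0.084) and Arl13b (0.25, adjusted p = 0.079), all genes of the cilium, were among the 5 that did not pass.

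**Figure D2:**
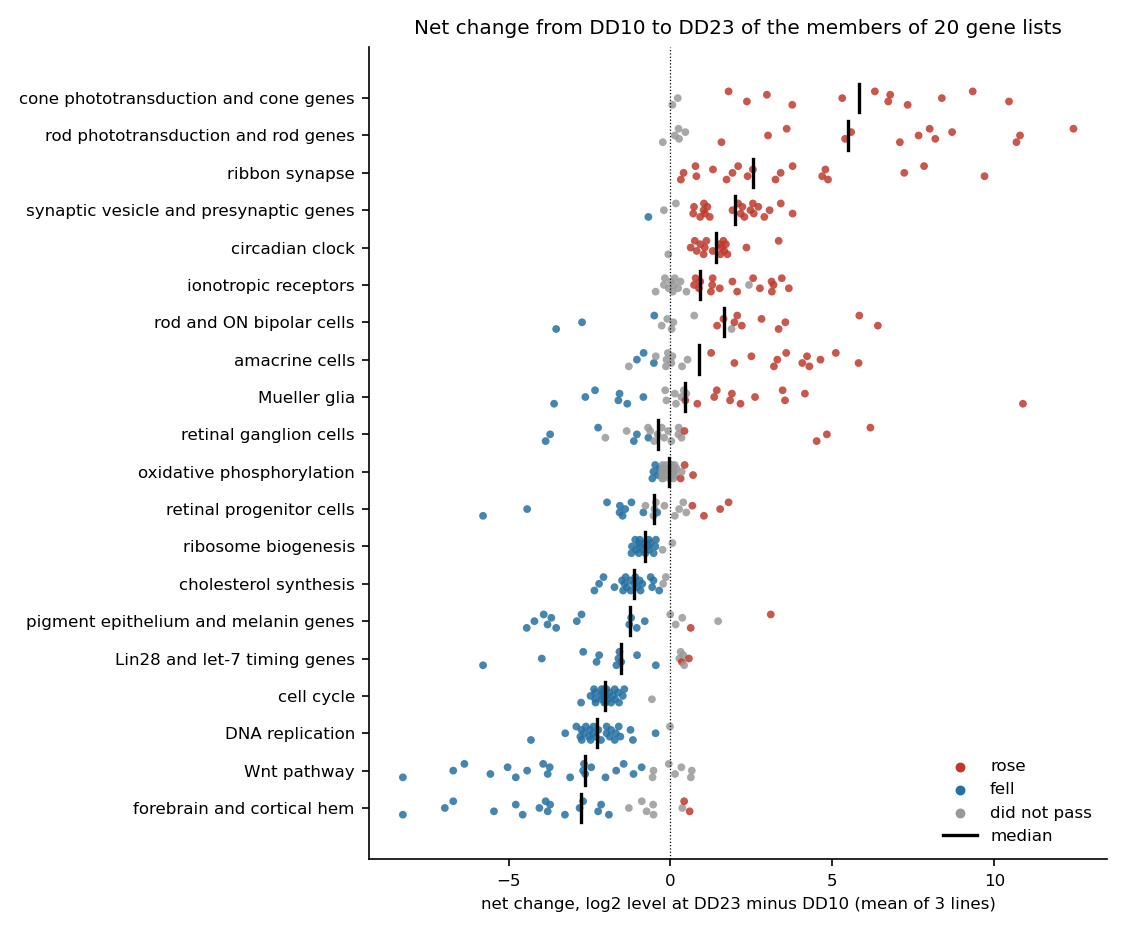
Net change from DD10 to DD23 (horizontal axis, log2 units, mean of 3 lines) of each tested member of 20 gene lists, coloured by whether it rose, fell or did not pass, with the list's median as a black bar. Medians run from 5.81 for cone genes to -2.75 for forebrain and cortical hem genes, and the members of oxidative phosphorylation lie close to 0.

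The choice of probe mattered for several of these genes, since the brightest of a gene's probes stood for the gene. Of 7901 genes with at least 2 detected probes, 1291 had probes whose net changes differed by over 1 log2 unit, 277 by over 2, and 21 had a probe that fell and another that rose by over 1 each. The genes named in this paragraph were singled out after their values were seen. Cnga1, the rod channel subunit, did not pass with its brightest probe (0.25, from -0.50 to -0.25), while another probe, not well above background at DD10, went from -6.81 to -1.23. Cnga3, its cone counterpart, was alike, with 0.06 for the brightest probe and 4.66 for the other. Gad1, which makes GABA, rose by 4.29 ± 0.35 (adjusted p = 0.00238) on its brightest probe, and its other probes gave -0.06 and 1.78. For Rpgrip1 the brightest probe rose by 1.53 and 3 other probes by 5.16 to 7.47, and for Snap25 the brightest rose by 0.92 and the others by 4.70 and 5.35. Cngb1, the second subunit of the rod channel, rose by 8.69 on a probe that the files place on chromosome 5, while RefSeq puts the gene on chromosome 8, where 2 other Cngb1 probes rose by 0.69 and 5.38. Such a mismatch of chromosome was found for 51 of the 16612 tested genes for which it could be checked. Samd11 (0.27) and Cplx2 (0.70) were among them. Other probes rose by more, at 2.12 and 3.8 for Samd11, neither of them mapped, and at 2.03 for Cplx2, on the chromosome of the gene.

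Promoter sequence was set beside these lists because the rising photoreceptor genes and the falling cell division genes moved as groups. RefSeq promoters (GRCm38.p6) were matched for 13107 of the tested genes, as 16572 windows of the 250 bases before a start site. A gene with several start sites gave several windows, which can overlap, so the shares below are of windows and not of genes. The motif TAATCC, bound by Crx-type homeodomain proteins, was searched on both strands (GGATTA on the other) and occurred in 5.47% of all windows. It was present in 14 of 49 windows (28.6%) of the 37 photoreceptor genes that rose at least 2-fold and in 0 of 52 windows of the 44 cell cycle and replication genes that fell at least 2-fold. The E2F-type motifs TTTCCCGC and TTTGGCGC, with their reverse complements, occurred in 2.07% of all windows, in 6 of those 52 windows (11.5%) and in 0 of the 49. The Nrl-type core TGCTGA was in 14% of all windows and 24.5% of the photoreceptor windows, and the E-box CAGCTG, which reads the same on both strands, in 12.6% and 14.3%. Over all genes that rose at least 2-fold TAATCC was in 6.62% of windows, and over all that fell in 4.02%. A match is only a run of letters, and no binding was measured.

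The 3 largest risers of the photoreceptor lists with a TAATCC match are printed below, 5′ to 3′ on the strand of the gene, with the match in capitals. The Gngt1 window is chr6:3993758-3994007 on the plus strand, with the match starting 44 bases before the start site. The Cngb1 window is chr8:95306586-95306835 on the minus strand, with matches 58 and 25 bases before it, and its rank rests on the probe that the files place on chromosome 5. The Aipl1 window is chr11:72037510-72037759 on the minus strand, with the match 53 bases before it, and Aipl1, a chaperone of the photoreceptor phosphodiesterase, rose by at least 69.3-fold.
Gngt1: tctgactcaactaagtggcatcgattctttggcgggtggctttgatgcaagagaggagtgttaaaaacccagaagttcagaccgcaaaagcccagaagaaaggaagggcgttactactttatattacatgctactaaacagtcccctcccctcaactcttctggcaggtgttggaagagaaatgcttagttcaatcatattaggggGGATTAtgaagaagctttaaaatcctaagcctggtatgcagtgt
Cngb1: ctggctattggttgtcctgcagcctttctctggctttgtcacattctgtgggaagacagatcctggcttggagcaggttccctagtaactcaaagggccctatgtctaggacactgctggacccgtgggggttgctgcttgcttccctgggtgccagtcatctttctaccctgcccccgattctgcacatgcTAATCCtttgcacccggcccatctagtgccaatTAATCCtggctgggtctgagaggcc
Aipl1: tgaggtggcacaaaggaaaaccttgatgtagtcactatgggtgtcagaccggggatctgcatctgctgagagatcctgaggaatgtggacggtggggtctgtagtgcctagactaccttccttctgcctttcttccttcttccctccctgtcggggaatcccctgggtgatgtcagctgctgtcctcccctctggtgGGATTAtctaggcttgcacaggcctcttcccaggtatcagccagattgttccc

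The 3 largest fallers of the cell division lists with an E2F-type match are shown for contrast. The Mcm5 window is chr8:75109259-75109508 on the plus strand, with its match 149 bases before the start site. The E2f7 window is chr10:110745189-110745438 on the plus strand, with its match 198 bases before it. The Mcm6 window is chr1:128359706-128359955 on the minus strand, with matches 110 and 47 bases before it.
Mcm5: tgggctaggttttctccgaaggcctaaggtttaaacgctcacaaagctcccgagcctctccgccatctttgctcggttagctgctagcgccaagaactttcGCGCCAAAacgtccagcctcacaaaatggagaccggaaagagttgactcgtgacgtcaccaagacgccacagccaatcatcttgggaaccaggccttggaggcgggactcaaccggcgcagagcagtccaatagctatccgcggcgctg
E2f7: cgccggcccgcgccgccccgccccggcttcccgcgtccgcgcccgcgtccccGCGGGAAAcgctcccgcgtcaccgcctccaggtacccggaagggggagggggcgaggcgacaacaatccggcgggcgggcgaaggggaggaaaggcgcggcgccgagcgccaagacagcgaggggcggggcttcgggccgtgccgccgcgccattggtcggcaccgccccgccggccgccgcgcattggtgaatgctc
Mcm6: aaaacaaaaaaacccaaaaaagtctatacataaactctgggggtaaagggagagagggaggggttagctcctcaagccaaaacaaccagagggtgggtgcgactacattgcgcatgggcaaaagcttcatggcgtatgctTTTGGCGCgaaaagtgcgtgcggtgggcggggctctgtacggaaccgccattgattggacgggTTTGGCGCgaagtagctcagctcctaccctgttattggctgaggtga

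Synaptic genes rose with the photoreceptors. All 19 tested ribbon synapse genes rose (median 2.54), against 28.7% of all genes. So did the 12 of them that were well above background on all 6 arrays (median 2). Lrit1, a transmembrane protein of the photoreceptor synapse, and Dmd, dystrophin, rose by at least 172-fold and at least 74-fold. Cacna2d4, the calcium channel subunit of the photoreceptor terminal, rose by at least 33-fold, from -6.70, -7 and -7.43 to 0.17, -0.09 and 0.45. Of 24 genes of synaptic vesicles and the presynaptic membrane 21 rose and 1 fell (median 2). Slc17a7, the vesicular glutamate transporter of photoreceptors and bipolar cells, rose by 3.77 ± 0.69 (adjusted p = 0.0143), Syn2 by 3.40 ± 0.13 and Cplx1 by 3.06 ± 0.08. Slc17a6, the glutamate transporter of ganglion cells, fell by 0.68 (SE 0.18, adjusted p = 0.0351), a call lost without Isl1KO (adjusted p = 0.0696) and without WT (adjusted p = 0.0818). Syt11 (-0.20, adjusted p = 0.15) and Stx1a (0.17, adjusted p = 0.57) did not pass.

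Receptors and channels of neurons changed to a lesser degree. Their counts stand beside the 28.7% of all genes that rose and the 27% that fell. Of 29 ionotropic receptor genes 17 rose and none fell (median 0.92), led by Grik3 (3.65 ± 0.17), Gria1 (3.44 ± 0.13) and Gria4 (3.18 ± 0.18), all subunits of glutamate receptors. Of 29 ion channel genes 19 rose and 2 fell (median 0.976). Kcna1 fell by 0.89 (SE 0.25, adjusted p = 0.0407), a call that was lost when any of the 3 lines was left out (adjusted p of 0.101 without B4KO, 0.0502 without Isl1KO and 0.073 without WT).

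Bipolar cell genes gave a mixed picture, in lines of which 2 were altered to have fewer of these cells. Of 19 tested genes of rod and ON bipolar cells 10 rose and 3 fell (median 1.64), against 28.7% and 27% of all genes. Pcp2, a regulator of G protein signalling in ON bipolar cells, went from -1.95, -2.78 and -1.89 to 4.04, 4.38 and 4.17 (6.40 ± 0.28, adjusted p = 0.00121). Gng13, the G protein gamma subunit of the ON cascade, rose by 5.83 ± 0.13 (adjusted p = 0.000853), and Prkca, the usual protein marker of rod bipolar cells, by 2.20 ± 0.17 (adjusted p = 0.00223). A gene that passed had to move the same way in each line, so the direction in the knockouts adds nothing to these 3 calls. Bhlhe23, the gene targeted in B4KO, was at -3.20, -3.41 and -2.95 at DD10 and at -4.55, -6.64 and -6.56 at DD23, well above background on 1 array of the later day (-2.73 ± 0.49, adjusted p = 0.0137, but 0.0503 without B4KO and 0.069 without Isl1KO). The labels do not give the deleted part of either targeted gene, so neither probe could check the genotype. Isl1 went from -0.60, 0.92 and -1.24 to -0.05, -0.05 and -1.63 (adjusted p = 0.5), with overlapping days. Cabp5, a calcium-binding protein of bipolar cells, moved by 0.09 (adjusted p = 0.63) on its brightest probe and by 3.52 on another. Grm6, the glutamate receptor of ON bipolar cells, did not pass the detection filter. Trpm1, a cation channel of ON bipolar cells and of melanocytes, fell by 3.53 (SE 0.30), and its 8 probes ranged from -5.58 to 0.62. Among 15 OFF bipolar genes 7 rose and 1 fell (median 0.493), with Lhx4, which photoreceptor precursors share, at 4.04 ± 0.15.

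Of 24 amacrine genes tested, 12 rose and 3 fell, against 28.7% and 27% of all genes. Their median was 0.891, although the 16 that were well above background on all 6 arrays had a median of 0.0437. Slc32a1, the vesicular transporter of GABA and glycine, went from -2.67, -2.03 and -3.47 to 2.51, 2.21 and 2.42 (5.10 ± 0.34, adjusted p = 0.0018). Ptf1a, which directs progenitors to amacrine and horizontal fates, rose by at least 27.4-fold and Gjd2, a gap junction protein, by at least 13.7-fold. Tfap2b, a transcription factor of amacrine cells, rose by 2.50 ± 0.17. Ebf3 fell by 1.04 (SE 0.13), and Pax6, present in progenitors and amacrine cells, went from 3.49, 4.08 and 4.06 to 3.33, 3.37 and 3.58 (-0.45 ± 0.14, adjusted p = 0.0509). Of 10 horizontal cell genes 2 rose and 2 fell, shares no higher than those of all genes. Lhx1 and Onecut3, both needed in horizontal cells or their precursors, fell by 2.28 (SE 0.36) and 2.72 (SE 0.54), calls that were lost for Lhx1 without Isl1KO (adjusted p = 0.062) and for Onecut3 without B4KO (adjusted p = 0.061), while Calb1 (0.26, adjusted p = 0.68) did not pass.

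Of 23 ganglion cell genes tested, 4 rose and 6 fell (median -0.395), shares no higher than the 28.7% and 27% of all genes, and 3 fell without Isl1KO. Atoh7, the factor that makes progenitors competent to form ganglion cells, went from 3.54, 5.52 and 4.47 to 0.54, 1.22 and 0.22 (-3.85 ± 0.31, adjusted p = 0.00224). All DD23 values of Atoh7 lay below all its DD10 values, and in 55% of all genes the days did not overlap. Pou4f2, a target of Atoh7 in newborn ganglion cells, went from 0.03, 2.17 and 1.14 to -0.37, -1.44 and -0.89 (adjusted p = 0.061). Tbr1 and Eomes, of ganglion cell subsets and also of the forebrain, fell by 3.71 (SE 0.54) and 2.23 (SE 0.37), with adjusted p of 0.054 and 0.0544 without Isl1KO. Thy1, a surface protein of mature neurons, rose from -3.94, -5.10 and -6.71 to 1.79, 1.29 and -0.32 (6.17 ± 0.17). Nefh, the heavy neurofilament subunit, rose by 4.51 ± 0.26, and Isl2, found in ganglion cells and in photoreceptor precursors, by 4.83 ± 0.24. Rbpms, a general ganglion cell marker, moved by -0.39 (adjusted p = 0.2).

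Müller glia and progenitors share many genes, and these did not move as a block. Of 26 Müller genes 12 rose and 7 fell, against 28.7% and 27% of all genes, so the share that fell was close to that of all genes. Their median was 0.435, and 0.00893 with spike-in scaling. Ptgds, prostaglandin D synthase, rose by 4.15 ± 0.14, Sox8 by 3.54 ± 0.78 (adjusted p = 0.0226, but 0.101 without Isl1KO) and Apoe by 1.43 ± 0.09, the last from 3.91, 4.21 and 4.28 to 5.42, 5.66 and 5.60. Id3 and Id1, inhibitors of basic helix-loop-helix factors, fell (-3.59 ± 0.19 and -2.33 ± 0.18), as did Car14 (-2.63 ± 0.17). Defining members of mature Müller glia did not pass: Rlbp1 (0.49, adjusted p = 0.11), Glul (-0.13, adjusted p = 0.34) and Sox9 (0.13, adjusted p = 0.4). Rlbp1 was not flat in between, with mean levels of -0.03, -1.865 and 0.45 at DD10, DD16 and DD23. It was lowest at DD16 in each of the 3 lines.

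Of 23 retinal progenitor genes 4 rose and 10 fell (median -0.494). This and the other list counts of the paragraph stand beside the 28.7% of all genes that rose and the 27% that fell. Sfrp2, a secreted Wnt modulator of progenitors, went from 3.78, 5.12 and 5.02 to 0.15, 0.71 and -0.22 (-4.42 ± 0.33, adjusted p = 0.0021), and Sox2, a progenitor factor, from 3.47, 3.63 and 3.46 to 1.53, 1.73 and 1.43 (-1.96 ± 0.08). Fgf15 (-1.56 ± 0.10), Hes1 (-1.57 ± 0.14) and Lhx2 (-0.84 ± 0.08) were also lower at DD23 than at DD10. Fgf15 and Hes1 had first risen and were highest at DD16 in all 3 lines. Their mean levels went from 1.43 and 0.14 at DD10 to 3.58 and 0.97 at DD16. Hes5, a Notch target like Hes1, rose from 4.70, 4.57 and 3.96 to 6.07, 6.47 and 6.06 (1.79 ± 0.17, adjusted p = 0.00312), so the days of these 2 related genes separated in opposite directions. Ccnd1, the D-type cyclin of retinal progenitors, went from 2.15, 3.54 and 3.98 to 2.42, 2.98 and 1.97 (adjusted p = 0.23), with overlapping days. Of 22 genes of neurogenic progenitors 12 rose and 3 fell (median 0.734), with Neurod4 at 5.61 ± 0.33, Neurod1 at 3.95 ± 0.21 and Olig2 at 2.75 ± 0.10. Among 18 Notch pathway genes 6 rose and 7 fell (3 and 4 without B4KO or without Isl1KO, and 4 falls without WT), Heyl by at least 10.7-fold upward, Jag1 (-2.57 ± 0.22) and Notch3 (-1.98 ± 0.11) downward. Of 14 factors of temporal identity, which shift the fates that progenitors produce, 3 rose and 5 fell, with 3 falls without Isl1KO. Casz1, a factor of later progenitors, rose by 1.75 ± 0.22 and Pou2f2, an earlier one, fell by 2.26 (SE 0.26).

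Genes of cell division fell almost without exception. Of 29 cell cycle genes 28 fell and none rose (median -2.02, against 27% of all genes falling), and all 29 were well above background on all 6 arrays. Mki67, which marks cycling cells, went from 4.57, 4.88 and 4.38 to 3.05, 3.52 and 2.49 (-1.59 ± 0.13, adjusted p = 0.00249). E2f7, a repressor of the E2F family, Kif20a, a kinesin of cytokinesis, and Gmnn, the inhibitor of replication licensing, also fell, with net changes of -2.76 ± 0.22, -2.47 ± 0.13 and -2.36 ± 0.16. E2f1 alone of the list did not pass (-0.57, adjusted p = 0.063). Of 28 DNA replication genes 27 fell (median -2.26). Mcm5, a subunit of the replicative helicase, went from 2.87, 3.13 and 3.31 to 0.07, 0.34 and -0.85 (-3.25 ± 0.33, adjusted p = 0.00346), and Orc1, of the origin recognition complex, fell by 4.31 (SE 0.31) and Pole, a replicative polymerase, by 2.91 (SE 0.26). Ung, a repair glycosylase, was the exception at -0.02 (adjusted p = 0.89). Of 16 histone genes 15 fell (median -1.46), led by H1f1 (-2.88 ± 0.19). In each of the 3 cell division lists the median net change was largest in Isl1KO, at -2.38 for cell cycle, -2.73 for replication and -1.75 for histones, against -1.89, -2.05 and -1.4 in WT and -1.7, -1.88 and -1.41 in B4KO, a difference that was not tested. The named division genes were still well above background on all 3 DD23 arrays, except Orc1, which was so on 1 of them.

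Of 17 tested genes of the Lin28 and let-7 pathway, which sets developmental timing, 11 fell (7 without Isl1KO) and 2 rose (median -1.52). Hmga2, a chromatin protein of young progenitors and a let-7 target, went from 3.50, 3.86 and 3.90 to -2.11, -1.50 and -2.48 (mm9, chr10:119799990-119800049; -5.79 ± 0.23, adjusted p = 0.00112). Lin28b, the RNA-binding protein that blocks let-7 maturation, fell by 3.97 (SE 0.24) and Myc by 2.69 (SE 0.38). Hmga2 was among the 12 largest falls of all genes. For all 3 genes every DD23 value lay below every DD10 value, and the days did not overlap, in either direction, in 55% of all genes.

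The largest fall of all genes was that of Wnt3a, and the 12 largest falls were of genes of several kinds. Wnt3a, a ligand of the cortical hem, went from 1.75, 0.83 and 1.07 to -7.01, -6.69 and -7.43 (mm9, chr11:59061659-59061718). It was well above background on all DD10 arrays and on no DD23 array, a fall of at least 75.8-fold (-8.26 ± 0.28, adjusted p = 0.000987). Rspo1, a secreted enhancer of Wnt signals, went from 5.84, 4.76 and 5.05 to -1.61, -0.95 and -1.90 (-6.71 ± 0.37, adjusted p = 0.00148). Of 27 tested Wnt pathway genes 20 fell and none rose (median -2.63), Dkk1, a secreted antagonist, by at least 22.3-fold. Of 24 forebrain and cortical hem genes 16 fell and 2 rose, each of the latter by less than 2-fold (median -2.75). Gmnc, a regulator of multiciliated cells, fell by at least 61.3-fold. The other large falls were Rhcg, an ammonium transporter, by at least 82.3-fold, Cryge, a lens crystallin, by at least 30.3-fold, Meox2 by at least 28.5-fold, Cxcl5, a chemokine, by at least 27.1-fold, Bmp5 by at least 18.4-fold, Aldh1a7 by 6.55 (SE 0.17) and Clec18a by 5.84, for which 4 probes ranged from -5.84 to 0.69.

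Pigment and retinoid genes changed in both directions. Of 18 genes of the pigment epithelium and melanin synthesis 12 fell and 2 rose (median -1.24). Slc45a2, a melanosome transporter, fell by 4.44 (SE 0.57), Gpr143, its signalling receptor, by at least 11.6-fold and Rab38, which sorts melanin enzymes, by 3.91 (SE 0.27). Ttr, transthyretin, rose from 3.02, 2.83 and 2.51 to 5.28, 6.83 and 5.55 (3.1 ± 0.36). Rpe65 and Lrat, which define the visual cycle of mature pigment epithelium, did not pass the detection filter. Of 16 retinoic acid genes 4 rose and 5 fell, shares close to the 28.7% and 27% of all genes. Their median was -0.122, and 0.139 among those detected on all 6 arrays. The synthesis enzymes Aldh1a1 and Aldh1a3 fell by 3.53 (SE 0.35) and 4.92 (SE 0.10), the first from 7.34, 8.07 and 7.82 to 3.96, 5.30 and 3.38, while Dhrs3, which reduces retinal and so lowers retinoic acid, rose by 3.94 ± 0.26, Rxrg by 3.76 ± 0.11 and Rarb by 2.66 ± 0.10. In the visual cycle list 8 of 13 rose (4 without Isl1KO) and 2 fell. Rbp3, the retinoid carrier made by photoreceptors, rose by 3.40 ± 0.28.

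Growth and metabolism genes were lower at DD23 in several lists. Over all genes 28.7% rose and 27% fell. Of 23 cholesterol synthesis genes 21 fell and none rose (median -1.12). Of 20 ribosome biogenesis genes 18 fell and none rose (median -0.795), with Nop56 at -1.20 ± 0.12. Ribosomal protein genes moved little, 8 of 28 falling (3 without B4KO, 1 without Isl1KO and 1 without WT) and none rising (median -0.192, and -0.618 with spike-in scaling). In oxidative phosphorylation 3 of 29 rose and 5 fell (median -0.0379), and the direction depended on the scaling, with 4 rises and 3 falls after quantile normalization (median 0.0999), 2 and 12 with median centring (-0.124) and 0 and 23 with spike-in scaling (-0.464). Without B4KO 2 of them fell, without Isl1KO 0 and without WT 1 (median 0.0129 without WT), by limma at an adjusted p of 0.05. Of 18 FGF pathway genes 11 fell and none rose (median -1.07), Fgf8 by 2.38 (SE 0.13). Of 24 genes of hypoxia and glycolysis 11 rose and 2 fell, with a median of 0.284 that turned to -0.142 with spike-in scaling. Ndrg1, which is induced by low oxygen and also made by neurons, went from 1.47, 1.42 and 1.34 to 5.13, 5.30 and 5.44 (3.88 ± 0.12). Among 19 genes of heat shock and integrated stress 8 rose (5 without B4KO) and 4 fell (median 0.364, and -0.0617 with spike-in scaling). Hspa1a, an inducible chaperone, rose from -1.67, -1.10 and -1.49 to 0.73, 1.14 and 2.58 (2.91 ± 0.42, adjusted p = 0.00771).

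Clock genes rose as a list. Of 18 tested, 17 rose and none fell (median 1.41), although no time of day was given in the labels, and the part that sampling time had in this was not tested. Bhlhe41, a transcriptional repressor, rose by at least 2.82-fold, and Nr1d1 by 1.76 ± 0.14. Ciart did not pass (-0.07, adjusted p = 0.78).

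Hox genes mark the hindbrain and spinal cord. Of 28 listed genes of these regions 11 were tested, 6 rose and 1 fell, and 5 of the 6 were not well above background on any DD10 array. Hoxb7 was at -6.51, -6.84 and -7.29 at DD10 and at 0.29, -0.90 and -3.23 at DD23, a rise of at least 12-fold. Hoxb8 rose by at least 6.88-fold, to -0.25, -1.66 and -4.34, and Hoxc4 by at least 6-fold, to -0.73, -2.44 and -3.67. In each of these 3 genes WT had the highest and Isl1KO the lowest DD23 level. Mean levels at DD16 were higher than at DD23, 1 against -2.08 for Hoxb8 and 0.84 against -1.28 for Hoxb7. The median of the list, 0.362, was -0.333 among the genes detected on all 6 arrays.

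Markers of cells outside the neural retina were detected to differing degrees. Beside their counts stand the 28.7% of all genes that rose and the 27% that fell. Of 15 microglia genes 6 could be tested, and 2 rose and 1 fell, with Aif1, Cx3cr1 and Tmem119 not detected by the filter used. Of 13 endothelial and blood genes on the array 5 were tested and 4 rose, Kdr, which retinal progenitors and neurons also make, by 1.57 ± 0.16 and Cldn5 by at least 3.53-fold (adjusted p = 0.117 without Isl1KO), and Cdh5, Tek and Tie1 did not pass the filter. Of 20 mesenchyme genes 15 were tested, and 8 fell and 2 rose, the larger rise being 6.17, the value given above for Thy1. Postn, a matrix protein, went from 0.82, 0.46 and 0.18 to -3.08, -4.40 and -5.34, and Col1a1 rose by 1.62 ± 0.29 (adjusted p = 0.013), from -1.81, -2.35 and -1.88 to 0.53, -0.79 and -0.91. Of 27 collagen, laminin and integrin genes 26 were tested, and 15 fell (8 without Isl1KO) and 4 rose. The part that these cells had in the changes above was not tested.

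The counts of the remaining lists stand beside the 28.7% of all genes that rose and the 27% that fell. Falls exceeded that share among nuclear lamina and chromatin genes and among imprinted genes. Lists with few tested members, such as muscle and endoderm, give only rough shares. Of 29 genes of the nuclear lamina and chromatin 15 fell and 9 rose, or 4 without Isl1KO (median -0.416), Dnmt3b, a DNA methyltransferase of early embryonic cells, by 2.65 downward. Of 24 imprinted genes 13 fell and 4 rose (median -0.432), with Mest at -2.80, Grb10 at -2.07 and Dlk1 at 2.17. Of 29 axon guidance genes 10 fell and 8 rose, or 5 without Isl1KO (median -0.192), and of 15 lens genes 4 fell and 1 rose. Of 14 general bipolar genes 5 rose and 2 fell, and of 9 starburst amacrine genes 2 rose and 3 fell. Among 10 genes of neural crest and oligodendrocytes 4 rose and 1 fell, with Olig1, a glial lineage factor, up by at least 4.94-fold. Of 8 muscle genes 4 rose and none fell, of 6 endoderm genes 3 and none, of 14 pluripotency genes 2 rose and 1 fell, of 15 interferon genes 5 (2 without B4KO, 1 without Isl1KO) and 3, and of 19 p53 targets 3 and 2. With spike-in scaling the median turned from above to below 0 for 13 of the 52 lists, those of general bipolar, horizontal, neural crest, muscle, endothelial, endoderm, Hox, pluripotency, interferon, p53, Notch, hypoxia and heat shock genes.

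The samples of DD16 divided the net changes by their course. On a straight line over days 46.2% of a net change would be complete at DD16, and the median over the 2997 genes that rose at least 2-fold was 52.8% (WT 48.4%, B4KO 56.8%, Isl1KO 53.2%), and over the 2179 that fell 50.6% (49.1%, 53.8% and 46.6%). A change was called steady where 25% to 75% was reached at DD16, early above 75% and late below 25%. Of the rising genes 1840 (61.4%) were steady, 559 (18.7%) early and 471 (15.7%) late, and 84 had gone past their DD23 level and 43 had first moved the other way. Of the falling genes 1366 (62.7%) were steady, 441 (20.2%) early and 294 (13.5%) late. For a gene at background on a day the share reached is only approximate. Among the genes well above background on all 9 arrays, 1242 of 1938 rises (64.1%) and 1197 of 1784 falls (67.1%) were steady. The class of a single gene was not firm: 30.6% of the early, 27.2% of the late and 51.8% of the steady rising genes fell in the same class in all 3 lines. A fit over 9 arrays found that DD16 departed from the straight line in 4896 genes (21.2%), 1552 of them among the 5176 genes with a net change of at least 2-fold. The count of 4896 was 1485 without B4KO, 274 without WT and 78 without Isl1KO. Those fits have fewer residual degrees of freedom, so a smaller count does not by itself show dependence on a line.

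**Figure D3:**
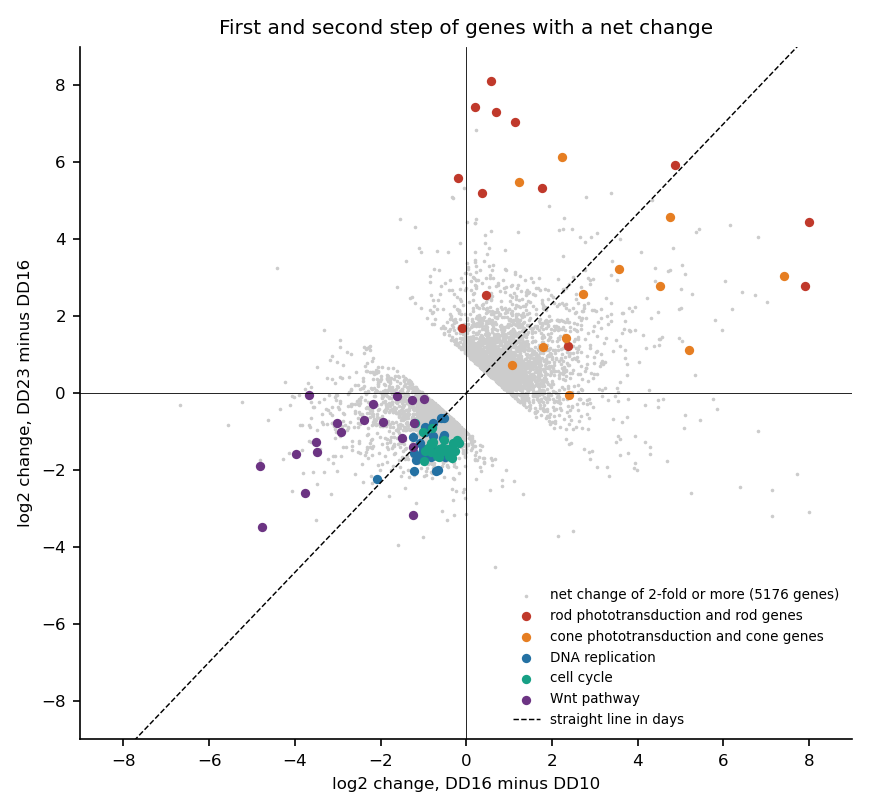
Change from DD10 to DD16 (horizontal axis) against the change from DD16 to DD23 (vertical axis), both in log2 units, for the 5176 genes with a net change of at least 2-fold, with 5 gene lists in colour and a dashed line for a constant rate per day. Rod genes rise mainly in the later step and Wnt genes fall mainly in the earlier one.

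Rod genes were mostly late and cone genes mostly steady, a difference that was not tested. Of the 13 rod genes that rose 9 were late and 4 steady, and of the 12 cone genes 9 were steady, 2 early and 1 late. Well above background on all 9 arrays were 4 of these rod genes, all late, and 8 of the cone genes, 6 steady and 2 early. Over all tested members the median steps to and after DD16 were 0.417 and 3.62 for the 18 rod genes and 2.37 and 2.01 for the 14 cone genes. Nrl stood at 0.88, 1.76 and 0.99 at DD16, and Nr2e3 at -2.87, -1.31 and -2.66. Rcvrn was not well above background on any DD16 array, and the probe used for Cngb1 on 1. The course of Pde6b differed between lines, with a share reached of 15.4% in WT, -63.9% in B4KO and 30.5% in Isl1KO. Among the early rises were Cdhr1, a cadherin of the outer segment base, with 75.4% reached, Pde6c, the cone phosphodiesterase, with 82.2%, and Pcp2 with 77.5%. Samsn1, an adaptor protein, was well above background on no DD10 array and on all DD16 arrays, and rose by at least 35.7-fold over the whole span. By DD16 Nrl and Nr2e3 were well above background in all 3 lines.

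Of the Wnt genes that fell at least 2-fold 7 were early, 12 steady and none late, and of the forebrain genes 6, 10 and none. Gmnc and Dmrta1, a cortical progenitor factor, were well above background on all DD10 arrays and on no DD16 array, and Cxcl5 on 1 DD16 array, while Wnt3a was so on all 3. Postn stood at a mean of -3.86 at DD16 and -4.27 at DD23, above background on 2 and 1 arrays. Of the 28 cell cycle genes that fell none was early, 18 were steady and 10 late, with median steps of -0.597 and -1.44 over the 29 tested, and of the replication genes 24 were steady and 2 late. Mki67 was at 4.21, 4.35 and 4.40 at DD16, with 17.9% reached. Atoh7 was at 5.18, 5.08 and 5.28 at DD16, above its DD10 level in WT and Isl1KO and below it in B4KO, and then fell. Egfem1 (12.2% reached), Shisa3 and Gata2, a transcription factor of early neural precursors, were the other largest late falls, and the last 2 were not well above background on any DD23 array. The median steps of the neurogenic list had opposite signs, 1.45 before DD16 and -0.366 after it, as had those of the ganglion cell list, 0.705 and -0.883. Over all genes, 177 made opposite steps of at least 2-fold each, 90 with a peak and 87 with a dip at DD16, and 104 of them had no net call.

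**Figure D4:**
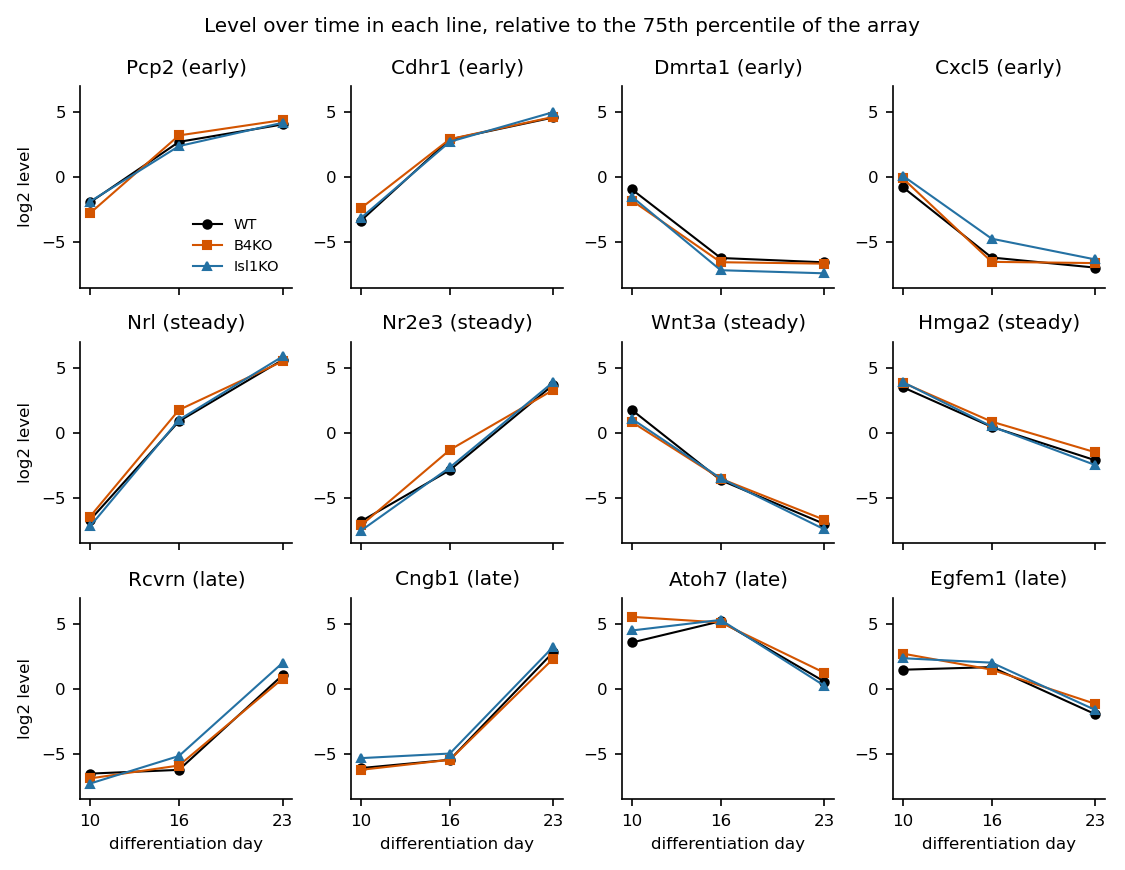
Level (vertical axis, log2 relative to the 75th percentile) of 12 genes at days 10, 16 and 23 (horizontal axis) in WT, B4KO and Isl1KO, in rows of early, steady and late net changes. Pcp2 has most of its rise by day 16, Nrl rises on both steps, and Rcvrn is well above background at day 23 only.

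The net changes were alike in the 3 lines at the scale of all genes. Across genes, which are not independent replicates, the net changes of WT and B4KO had a Pearson correlation of 0.874, those of WT and Isl1KO 0.911 and those of B4KO and Isl1KO 0.906. A test of whether the change over days differed from WT passed for 0 genes (0%) in B4KO and 0 genes (0%) in Isl1KO with limma, with 1789 and 1468 genes at an unadjusted p under 0.05. With 2 residual degrees of freedom this does not show that the lines changed alike. Among genes well above background on all 6 arrays the 4 with the widest spread were Meg3, Prl3d1, Hspb1 and Slc18a3, given as values only. Meg3, an imprinted noncoding RNA, changed by 5.05 in WT, -1.50 in B4KO and 2.51 in Isl1KO. Prl3d1, a placental prolactin, was at 1.30 in WT at DD10 and between -4.27 and -2.79 in the other 5 samples. Hspb1, a small heat shock protein, went from 0.10, -2.06 and -1.31 to -0.31, 1.01 and 2.12. Slc18a3, the vesicular acetylcholine transporter of starburst amacrine cells, went from -3.23 to 0.01 in WT and from -4.08 to -0.12 in B4KO, but from -3.85 to -3.81 in Isl1KO.

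B4KO was hybridised on a slide of its own, and Isl1KO and WT shared the other, while day went with the array's position on the slide, so that day and position cannot be told apart. Within the slide of Isl1KO and WT 9646 genes passed, 5026 upward and 4620 downward.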

How the data were processed

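Single-colour Agilent arrays gave one intensity per spot, deposited as Feature Extraction output (version 12.0.3.1, per the submitters' processing notes and the file headers), with mm9 coordinates. Its background had been subtracted, as those headers state. The value table the authors deposited, used only as an alternative, holds a linear ratio, the processed intensity over a constant of each array within 0.1%. Well-above-background flags are those deposited in the scanner files.

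From 59305 gene spots, 56605 probes were averaged per array; 102 were left out as outliers, none was saturated. RefSeq named 32994 probes, and 23611 kept the name in the file. Levels are log2 intensity minus log2 of the array's 75th percentile. Probes detected above background on 3 or more of the 6 arrays were kept, and the brightest of a gene stood for it. The model was limma 3.58.1 in R 4.3.3 (lmFit and eBayes) with line and day, so pairs come from the genotype labels; p-values are Benjamini-Hochberg adjusted over all 23063 genes at 0.05. Departure of DD16 from a line over days was fitted on 9 arrays. "At least" folds set the brighter day against the lowest signal well above background. The members, the 52 lists and the tests were chosen with earlier results of these data known, and no list was tested as a set. Lists can share members, so their counts are not independent. Nrl is on the rod and photoreceptor factor lists, and Wnt3a on the Wnt and forebrain lists. Named were the 12 largest rises and falls, a fixed panel of cell type genes, up to 3 largest per direction of each list with members that did not pass, the 4 largest per direction of each course, and the 4 genes with the largest spread between lines among those detected on all 6 arrays. Some genes that the rule names are not reported here. The scripts were tested on simulated data with 200 changed genes among 23063. The net test recovered 29% of changes of 1 log2 unit and 79% of those of 3, with 2 false calls. The simulation held far fewer changed genes than the 12859 that passed here, so the adjusted threshold was stricter in it. Its rates of recovery and false calls therefore do not carry over to the net test of the data. A gene that did not pass may still have changed.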

Additional observations from a re-analysis of the deposited data

How the results depend on the processing

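Quantile normalization, median centring, normexp, the deposited value table, the mean over probes and all 9 arrays each kept the number of genes passing within 1.5 times the 12859 reported. Without the line as a block 9828 genes passed. Requiring detection on all 6 arrays left 1981 rises of at least 2-fold in place of 2997. With every probe tested on its own 19350 passed, 9454 of them downward, with 4549 rises and 3336 falls of at least 2-fold. Tested against a 1.5-fold change, 4524 passed, 2580 upward and 1944 downward. With spike-in scaling, chosen after seeing the data, 3470 rose and 11452 fell, 1929 and 4424 of them at least 2-fold. Leaving out 1 line gave 7518 to 9646 genes, 4006 to 5026 upward and 3512 to 4620 downward, and for departures of DD16 78 (without Isl1KO), 274 (without WT) and 1485 (without B4KO). Gad1 had -0.06116 where only probes detected on all 6 arrays were used, which picks another of its probes. With spike-in scaling Cnga3 (-0.3677), Gnb1 (-0.2923) and Rpgr (-0.3827) turned from slightly above 0, where they did not pass, to falls that passed. Of the 163 named genes tested, 15 lost a call in at least 1 setting, Kcna1 and Slc17a6 in 6 and Rax in 5. Beside the list medians given above, quantile normalization turned interferon (-0.0171), detection on all 6 arrays general bipolar (-0.00973) and lens (0.0517), the mean over probes microglia (0.021), and leaving out a line starburst (0.0787 without B4KO), microglia (0.198 without Isl1KO) and horizontal genes (-0.185 without WT). With 1 sample per line and day, and 3 lines, precision is limited by the number of arrays, and genes near background have only bounds.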
